A study of Homo sapiens with 12 samples.

Results

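The 56 genes described here encode subunits of the respiratory chain, and each was taken by its gene symbol from a table of 39266 genes. Of these genes, 13 lie on the mitochondrial genome and 43 in the nucleus. The mitochondrial genes comprise 7 subunits of complex I, 1 of complex III, 3 of complex IV and 2 of complex V, and the nuclear genes 17, 4, 6, 8 and 8 subunits of complexes I, II, III, IV and V. NDUFA4 was placed with complex IV. Each symbol matched 1 row of the table, and all 56 genes had counts high enough to be tested.

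Messenger RNA was sequenced from PC9-OR cells, an established line that the labels describe as non-small cell lung cancer without spelling out OR. The 4 groups of 3 libraries each were Control, osimertinib (OSI, an inhibitor of the receptor tyrosine kinase EGFR), dauricine (DAC, a plant alkaloid) and both compounds together (DAC+OSI). All groups share the line and carry no other stated agent, and no dose, exposure time or Control vehicle is stated. It is not stated whether a group's 3 libraries are separate cultures, so p-values here weigh a difference against library-to-library spread that may be purely technical.

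The respiratory chain passes electrons from NADH (complex I) and succinate (complex II) through complex III and cytochrome c to oxygen (complex IV), and the proton gradient so formed drives the ATP synthase (complex V). Mitochondrial DNA encodes the most hydrophobic core subunits of all of these complexes except complex II, whose subunits are all nuclear. The mitochondrial messages are cut from long precursors transcribed from each strand, whereas nuclear subunits are transcribed gene by gene, translated in the cytosol and imported. In lung adenocarcinoma, as in other tumours, cells differ widely in how far they rely on this chain or on glycolysis.

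Libraries held 24909151 to 66866253 counts. In Control 2 and DAC+OSI 2, genes deviated from the group mean according to their GC content, with a Spearman rho of 0.56 and 0.57 across 20443 genes, against -0.52 to -0.37 in the remaining Control and DAC+OSI libraries and -0.09 to 0.06 under OSI or DAC alone. DAC+OSI 2 was also the shallowest library. Counts of called genes against Control, and the calls the results turn on, are therefore given from all 12 libraries and again from the 10 libraries without this pair. Because the pair was left out for deviating, which by itself narrows the spread, the smaller p-values from 10 libraries are no independent support. Shares of all genes called are given for the edgeR fits on 12 and on 10 libraries only. Counts of called members from other fits, such as DESeq2, limma-voom or those leaving out 1 library, stand without a share. So do counts at an unadjusted p under 0.05. Neither are read as results about the members. The epithelial keratins KRT8, KRT18 and KRT19 stood at 1918 to 8591 CPM (counts per 1000000 counts of the library, on library sizes scaled by TMM), while the lung lineage genes NKX2-1 and SFTPB had 47 and 21 counts in all libraries together and NAPSA 0.852 to 1.61 CPM. With KRT7, EPCAM and CDH1, the 6 epithelial markers summed to 9720 to 12400 CPM in Control and 12400 to 14200 in OSI. The sums were 14800 to 16000 in DAC and 12800 to 20200 in DAC+OSI. KRT7 was called higher than in Control with OSI, DAC and DAC+OSI (1.5-, 1.78- and 1.99-fold, edgeR adjusted p = 0.00781, 0.00203 and 0.000131). KRT19 was called higher with DAC+OSI (1.56-fold, adjusted p = 0.017). Among markers of other cells, COL1A1 reached 78.3, PTPRC 17.8 and VWF 15.4 CPM in DAC+OSI 2 against at most 38.1, 7.1 and 5.36 CPM elsewhere, and DCN had 2 counts in all. These markers also moved with treatment. The 3 haematopoietic markers summed to 5.72 to 7.93 CPM in Control, 2.6 to 3.29 in OSI, 8.35 to 9.29 in DAC and 7.43 to 22.6 in DAC+OSI. Of these, 2 of 3 were lower with OSI and higher in DAC than in OSI, with PTPRC 3-fold (adjusted p = 0.00755) and CD3E 3.5-fold (adjusted p = 0.00797) in the latter. The third, CD68, at 0.0177 to 0.348 CPM, was called lower with DAC+OSI than in Control (log2 -1.86, adjusted p = 0.0441), against the direction of the sum. The 3 endothelial markers summed to 4.95 to 5.34, 10.6 to 13.2, 8.64 to 9.92 and 12.4 to 28.4 CPM in the same order, with CDH5 2.9-fold higher with OSI (adjusted p = 8.94e-05) and VWF 5.15-fold higher with DAC (adjusted p = 0.00437). They did not move together. CDH5 stood at 3.27 to 4.22 CPM in DAC and 3.48 to 3.57 in Control. PECAM1 stood at 0.313 to 0.622 CPM in OSI and 0.616 to 1.17 in Control. The 4 fibroblast markers summed to 9.97 to 21, 6.05 to 7.84, 9.63 to 10.6 and 26.5 to 92.7 CPM. Against Control, COL1A1 was called higher with DAC+OSI (3.81-fold, adjusted p = 0.00143). COL3A1, at 0.137 to 0.681 CPM, was called lower with DAC (log2 -1.66, adjusted p = 0.0483). The part of these markers in the results was not tested. In bulk RNA, fewer cells of a kind and less RNA per cell cannot be told apart.

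The messages of the mitochondrial genome were abundant and uneven in Control. Divided by exon length, MT-CO1, the catalytic subunit of cytochrome c oxidase, stood highest at 34001 ± 937 CPM per kb (mean ± SD, n = 3). MT-CO2, which takes electrons from cytochrome c, and its neighbour in the complex MT-CO3 followed at 20096 ± 757 and 19697 ± 1711 CPM per kb and did not differ beyond their spread. The complex I genes MT-ND4 and MT-ND4L stood at 11188 ± 986 and 9650 ± 950, MT-ND1 at 8163 ± 1059 and MT-ATP6, which lines the proton path of the ATP synthase, at 6968 ± 595 CPM per kb. Among these 4, each level lay within the summed SDs of the next in order. MT-ND2, MT-ND3 and MT-CYB, the cytochrome b of complex III, lay between 4070 and 4488 CPM per kb and could not be ordered. MT-ND5 reached 2926 ± 195, MT-ATP8 1074 ± 779 and MT-ND6 671 ± 237 CPM per kb, and the last pair overlapped. MT-ND6 is the only one of the 13 read from the light strand, and its message is known to carry little or no poly(A) tail, on which the library protocol selects. The nuclear members lay far below, with a median of 16.8 CPM per kb of annotated exon (33.9 by the longest transcript) and a range from 0.225 for NDUFA9 to 186 for ATP5F1B, the catalytic beta subunit of the ATP synthase.

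A pair of overlapping genes on the heavy strand matters for how these reads can be assigned, so both overlaps are shown here from GENCODE 29 on GRCh38, 5′ to 3′, with the bases shared with the next gene in capitals. No source used here names the build behind the deposited counts. MT-ATP8 (chrM:8366-8572, plus strand) shares its last 46 bases, 22.2% of its length, with MT-ATP6. The last 60 bases of MT-ND4L (chrM:10707-10766, plus strand) end in 7 bases, 2.36% of the gene, shared with MT-ND4.
MT-ATP8: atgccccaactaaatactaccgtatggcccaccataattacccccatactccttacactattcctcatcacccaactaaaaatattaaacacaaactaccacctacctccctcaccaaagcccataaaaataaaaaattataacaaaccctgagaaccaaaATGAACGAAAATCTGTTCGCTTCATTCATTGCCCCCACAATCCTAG
MT-ND4L: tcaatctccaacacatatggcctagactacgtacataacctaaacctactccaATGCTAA
Per base of gene length, MT-ATP8 stood at 0.286, 0.0396 and 0.157 of MT-ATP6 in the Control libraries, although both lie on the same processed message. The ratio was 0.085, 0.0653 and 0.0714 in OSI and 0.265, 0.273 and 0.248 in DAC, which do not overlap. MT-ND4L and MT-ND4, which also share a message, stood closer, at a ratio of 0.862 ± 0.0306 in Control, 1.05 ± 0.114 in OSI, 1.04 ± 0.0819 in DAC and 1.05 ± 0.0711 in DAC+OSI. MT-ATP8 is the shortest member, at 207 bases, and the lowest in GC content among the 13, at 39.6%. Whether reads in an overlap were dropped or counted for 1 gene is not given, and how length, overlap and GC content bear on these ratios was not tested.

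As a share of all counts, the 13 mitochondrial messages took 13.3, 12.5 and 13.2% of the Control libraries and 13.6, 12.5 and 16.2% of the OSI libraries. They took 9.7, 9.72 and 8.08% in DAC and 8.71, 10.7 and 10.5% in DAC+OSI. Every DAC-treated library, with or without OSI, thus lay below every library without DAC. On the TMM scale the sum was 129198 ± 1628 CPM in Control, 139981 ± 22536 in OSI, 89070 ± 10196 in DAC and 105773 ± 23101 in DAC+OSI (SD, n = 3). On this scale DAC stayed apart from Control and OSI, but DAC+OSI did not, since DAC+OSI 2 reached 129777 CPM. The 43 nuclear messages summed to 3127 ± 255, 3324 ± 235, 3051 ± 134 and 3256 ± 494 CPM in the same order of groups, and all groups overlapped. Mitochondrial over nuclear, the ratio of the sums was 43.8, 37.3 and 43.5 in Control, 37.8, 36.4 and 53.2 in OSI, 32.3, 31.5 and 24.2 in DAC and 27, 34.1 and 36.3 in DAC+OSI. DAC lay below both groups without DAC in every library, while the highest DAC+OSI value, 36.3, was next to the lowest OSI value, 36.4. These sums are descriptions without a test.

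**Figure D1:**
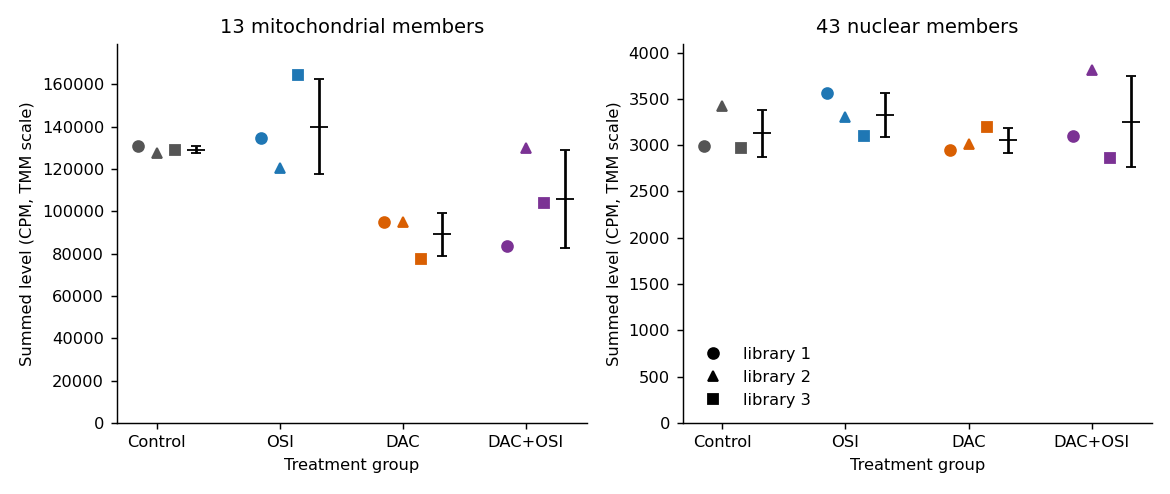
Summed level in CPM (TMM scale) of the 13 mitochondrial (left) and 43 nuclear members (right) in each library by treatment group, with symbols for library numbers and bars for mean ± SD (n = 3). The DAC libraries lie at 77298 to 95148 CPM on the left, below every Control library, while all groups overlap on the right.

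The effect of dauricine alone was read from DAC and Control. Of the 13 mitochondrial messages, 5 fell and none rose at an adjusted p under 0.05 (edgeR quasi-likelihood test, two-sided, Benjamini-Hochberg over 20820 genes), from each of the 4 complexes with a mitochondrially encoded subunit: MT-ND4 and MT-ND5 of complex I, MT-CYB of complex III, MT-CO1 of complex IV and MT-ATP6 of complex V. Across all genes tested, 4.11% were called lower and 5.33% higher. The median log2 fold change was -0.54 over the 13 mitochondrial messages, 0.04 over the 43 nuclear ones and 0.01 over all genes. None of the nuclear members was called, against 9.43% of all genes in either direction. At an unadjusted p under 0.05 there were 3, and DESeq2 and limma-voom each called 1 higher and 1 lower.

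MT-CYB, the mitochondrially encoded heme protein of complex III, stood at 4573, 4803 and 4556 CPM in Control and 2968, 2909 and 2442 CPM in DAC. It fell 1.67-fold (log2 fold change -0.74, SE 0.15, adjusted p = 0.00678), with no overlap between the groups. MT-CYB remained called in all 22 alternative fits, with adjusted p-values from 1.6e-05 to 0.0498.

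MT-ND4, a proton-pumping subunit in the membrane arm of complex I, stood at 16502, 13892 and 15856 CPM in Control and 9021, 9820 and 7635 CPM in DAC, again without overlap. It fell 1.75-fold (log2 fold change -0.80, SE 0.18, adjusted p = 0.013). Leaving out DAC 3, the lowest DAC library, ended this call alone among 22 alternatives (adjusted p = 0.0759). MT-ND5, the subunit at the far end of the same arm, stood at 5521, 4896 and 5491 CPM in Control and 3825, 4045 and 3125 CPM in DAC. It fell 1.45-fold (log2 -0.53, SE 0.15, adjusted p = 0.0453), a call that 8 of 22 alternatives ended, each of them leaving out 1 library. The highest adjusted p among these was 0.185.

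MT-CO1 stood at 50866, 53715 and 52706 CPM in Control and 38320, 37838 and 32027 CPM in DAC. Its fall was 1.45-fold (log2 -0.54, SE 0.16, adjusted p = 0.0488). This is the least firm of the 5 calls, since 11 of 22 alternatives ended it, relative log expression (RLE) and upper quartile scaling among them, with adjusted p-values up to 0.195. MT-ATP6 stood at 4421, 5199 and 4616 CPM in Control and 2758, 2918 and 2329 CPM in DAC. It fell 1.78-fold (log2 -0.83, SE 0.22, adjusted p = 0.0346), and 8 alternatives, GC correction among them, ended the call with adjusted p-values up to 0.156.

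The other 8 mitochondrial messages were not called. MT-CO2 stood at 13773, 14249 and 13214 CPM in Control and 9624, 9531 and 7806 CPM in DAC (log2 -0.61, SE 0.27, adjusted p = 0.199). MT-CO3 stood at 15037, 16940 and 14349 CPM in Control and 12122, 11835 and 9419 CPM in DAC (log2 -0.47, SE 0.22, adjusted p = 0.224). MT-ND4L stood at 2988, 2544 and 3066 CPM in Control and 2059, 2002 and 1818 CPM in DAC (log2 -0.55, SE 0.18, adjusted p = 0.0822). These 3 had no overlap between the groups either, so that 8 of 13 mitochondrial messages lay lower in every DAC library than in every Control library, against 19% of all genes tested. MT-ND3 overlapped, with 2132, 825 and 1698 CPM in Control and 1281, 1051 and 758 CPM in DAC. MT-ND6 also overlapped, at 446, 211 and 400 CPM against 280, 325 and 239 CPM. In both genes it was Control 2 that stood low. MT-ATP8 ranged over 385, 62.6 and 220 CPM in Control and 222, 243 and 175 CPM in DAC.

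MT-ND1 and MT-ND2, the first messages along the heavy-strand transcript, overlapped between these groups. MT-ND1, which helps form the quinone-binding site of complex I, stood at 8619, 6670 and 8121 CPM in Control and 8556, 8123 and 6201 CPM in DAC (log2 -0.03, SE 0.16, adjusted p = 0.929). MT-ND2, another membrane-arm subunit, stood at 5619, 3626 and 4784 CPM in Control and 4113, 4123 and 3324 CPM in DAC (log2 -0.28, SE 0.20, adjusted p = 0.444). A p above the threshold does not show that these messages were unchanged.

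**Figure D2:**
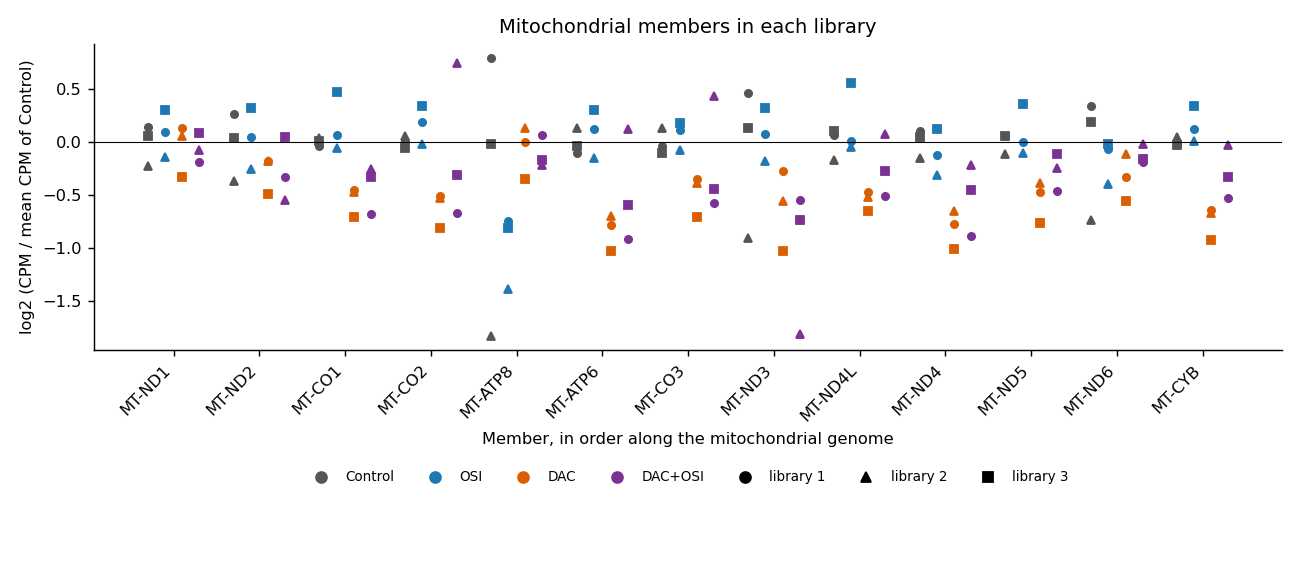
Level of each mitochondrial member in each library as log2 of CPM over the mean CPM of Control, in order along the mitochondrial genome, with colours for treatment groups and symbols for library numbers. The DAC libraries of MT-CO1, MT-ATP6, MT-ND4 and MT-CYB lie below every Control library, while those of MT-ND1 lie around 0.

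Leaving out Control 2 and DAC+OSI 2 raised the count of mitochondrial messages called lower with DAC from 5 to 12 of 13, against 12.8% of all genes in that fit. The exception was MT-ND1 (log2 -0.14, adjusted p = 0.458). The count also moved with single libraries. It was 1 without DAC 3, 2 without DAC 1, DAC 2, Control 1, Control 3 or OSI 1, 3 without Control 2 or OSI 2, and 8 without DAC+OSI 2. The direction did not turn: the median of the mitochondrial messages minus that of the nuclear ones was -0.58 on the log2 scale from all libraries, -0.69 from 10 libraries, and between -0.68 and -0.41 with each library left out in turn.

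Because all of these messages come from the same small genome, 4 of them were also set against MT-ND1 of the same library, which cancels depth and scaling. The MT-CYB count was 0.531, 0.72 and 0.561 of the MT-ND1 count in Control, 0.607, 0.661 and 0.611 in OSI, 0.347, 0.358 and 0.394 in DAC and 0.472, 0.618 and 0.447 in DAC+OSI. The DAC libraries lay below all others. MT-ND4 over MT-ND1 was 1.98 ± 0.0883 in Control, 1.73 ± 0.0264 in OSI, 1.16 ± 0.0963 in DAC and 1.46 ± 0.303 in DAC+OSI. MT-ATP6 over MT-ND1 was 0.62 ± 0.141, 0.611 ± 0.00754, 0.352 ± 0.0272 and 0.483 ± 0.187 in the same order. MT-CO1 over MT-ND1 was 6.81 ± 1.11, 7.09 ± 0.485, 4.77 ± 0.356 and 5.26 ± 0.614. For all 4 ratios the DAC libraries lay below every Control and OSI library. These 4 messages were all called lower in DAC, against Control and against OSI. MT-ND1 had the smallest log2 fold change in size of the mitochondrial messages in both comparisons (-0.03 and -0.13). Low DAC ratios therefore follow from this choice of genes and are no added evidence of a fall. The ratios describe how far these 4 messages moved apart from MT-ND1 within a library. They do not show that MT-ND1 was constant, and they carry no test here.

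**Figure D3:**
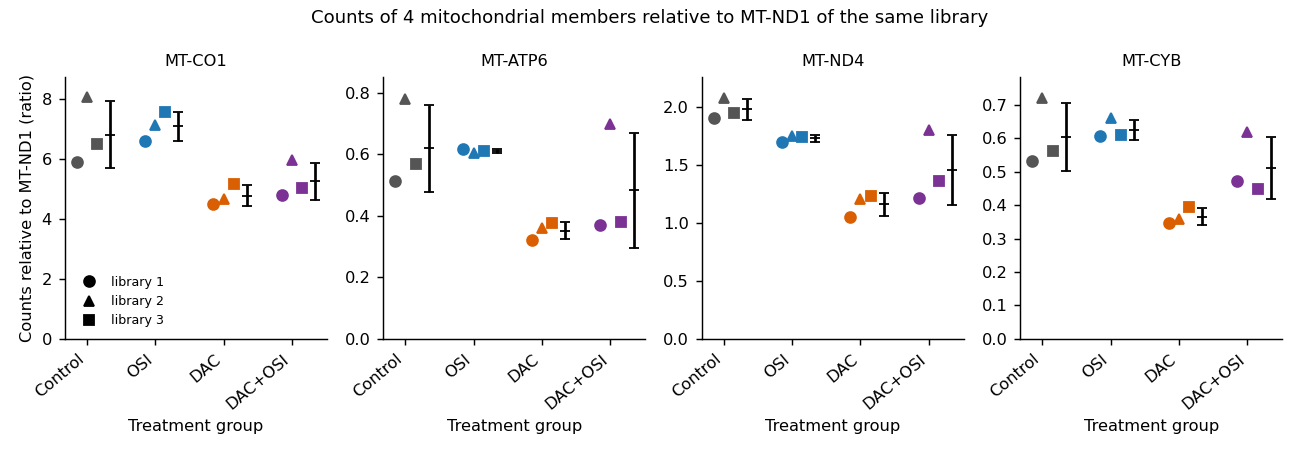
Counts of MT-CO1, MT-ATP6, MT-ND4 and MT-CYB divided by the MT-ND1 count of the same library, by treatment group, with symbols for library numbers and bars for mean ± SD (n = 3). For MT-CYB the DAC libraries lie at 0.347 to 0.394 and the Control libraries at 0.531 to 0.72.

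The ribosomal RNAs of the mitochondrial genome, MT-RNR1 and MT-RNR2, lie upstream of MT-ND1 on the same strand. Neither was called in any of the 7 comparisons from all 12 libraries with edgeR, DESeq2 or limma-voom, and neither had an unadjusted p under 0.05. From 10 libraries, 1 of the 2 was called higher in DAC against OSI (log2 0.38) and in DAC+OSI against OSI (log2 0.43). Together they took 2.33, 0.964 and 2.15% of counts in Control, 1.99, 1.75 and 2.33% in OSI, 2.79, 2.57 and 2.3% in DAC and 2.5, 1.39 and 2.73% in DAC+OSI. Control and DAC overlapped in this share, which they did not in the share of the messages. The lowest values were those of Control 2 and DAC+OSI 2. Poly(A) selection was used, so these shares are not the amount of ribosomal RNA in the cells.

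Along the genome, the log2 fold change of DAC against Control was -0.03 for MT-ND1, -0.28 for MT-ND2, -0.54 for MT-CO1, -0.61 for MT-CO2, -0.06 for MT-ATP8, -0.83 for MT-ATP6, -0.47 for MT-CO3, -0.59 for MT-ND3, -0.55 for MT-ND4L, -0.80 for MT-ND4, -0.53 for MT-ND5 and -0.74 for MT-CYB. There was no steady decline: apart from MT-ATP8, MT-ND1 and MT-ND2 lay above the rest, and from MT-CO1 on the values went up and down, with the lowest at MT-ATP6 in the middle of the order. The Spearman rho between gene order and fold change was -0.53 over the 12 heavy-strand messages, -0.50 without MT-ATP8 and -0.67 from 10 libraries. For DAC against OSI, which uses no Control library, it was -0.39. These are descriptions over genes that share a precursor, libraries and neighbours in base composition.

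**Figure D4:**
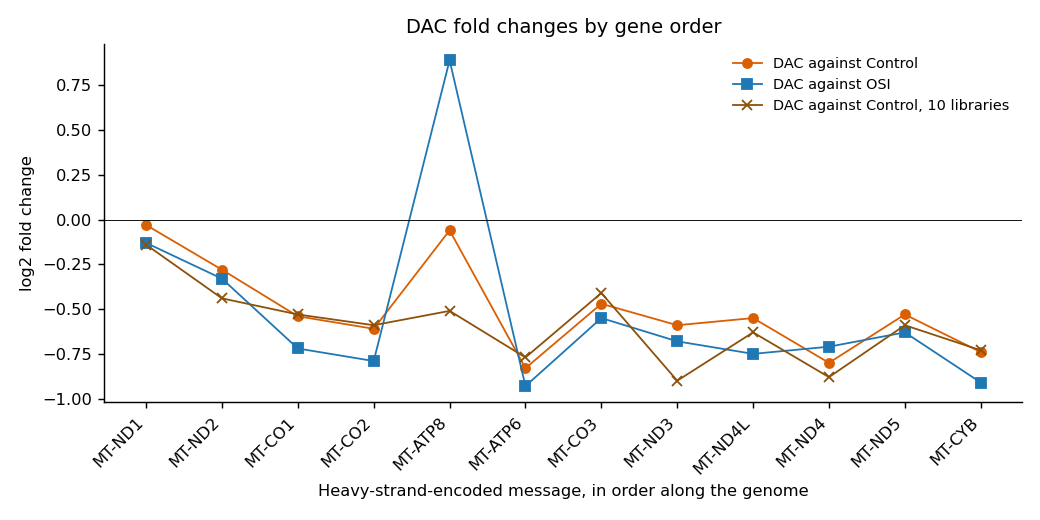
Log2 fold changes of the 12 heavy-strand messages with DAC, in order along the mitochondrial genome, against Control from all libraries, against OSI, and against Control from 10 libraries. MT-ND1 lies at -0.03, -0.13 and -0.14, and MT-CYB at -0.74, -0.91 and -0.73, with values between them that go up and down along the order. MT-ATP8 lies at -0.06, 0.89 and -0.51.

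DAC against OSI sets the single agents against each other without any Control library. Of the mitochondrial messages, 6 were lower and none higher in DAC, against 10.5% of all genes called lower and 10.2% higher, and 9 of 13 lay lower without overlap, against 26.9% of all genes. The OSI libraries held MT-CYB at 5045, 4682 and 5864 CPM, and DAC stood 1.87-fold lower (log2 -0.91, SE 0.15, adjusted p = 0.000784). MT-ATP6 stood at 5148, 4281 and 5850 CPM in OSI and was 1.91-fold lower in DAC (log2 -0.93, SE 0.22, adjusted p = 0.0103). MT-CO1 stood at 54754, 50487 and 72496 CPM in OSI and was 1.64-fold lower in DAC (log2 -0.72, SE 0.16, adjusted p = 0.00644). The complex I messages MT-ND4, MT-ND4L and MT-ND5 were lower by log2 fold changes of -0.71, -0.75 and -0.63, with adjusted p-values of 0.0128, 0.0118 and 0.0112. OSI 3 was the highest OSI library for all 6.

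The calls of MT-CYB and MT-CO1 held in all 22 alternatives, those of MT-ATP6 and MT-ND5 were lost without DAC 3 (adjusted p = 0.0577 and 0.0572), and those of MT-ND4 and MT-ND4L without DAC 3 or OSI 3 (up to 0.0654 and 0.0558). The count of 6 lower calls became 2 without DAC 3, 4 without OSI 3, 9 without DAC+OSI 2 and, from 10 libraries, 10 lower and 1 higher, against 23.8% of all genes called lower. The one higher was MT-ATP8, at 133, 85 and 127 CPM in OSI and 222, 243 and 175 CPM in DAC (log2 0.89 and adjusted p = 0.17 from all libraries, log2 0.88 and adjusted p = 0.000253 from 10). None of the nuclear members was called, against 20.7% of all genes in either direction. At an unadjusted p under 0.05 there were 4, DESeq2 and limma-voom called 0, and without DAC+OSI 2 edgeR called 11. Medians of log2 fold changes were -0.68 for mitochondrial and -0.01 for nuclear members.

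OSI and Control show the difference with osimertinib alone. None of the 13 mitochondrial messages was called by edgeR, against 18.9% of all genes in either direction. DESeq2 and limma-voom called none of the 13 either, and 1 message had an unadjusted p under 0.05. That was MT-ATP8 (log2 -0.95, SE 0.44, adjusted p = 0.16). The groups overlapped for each of the 13 messages, and the median log2 fold changes were 0.09 for mitochondrial and 0.04 for nuclear members. From 10 libraries, MT-ATP8 and MT-ND6 were called lower, with adjusted p = 5.22e-06 and 0.0051, against 20.8% of all genes. MT-ATP8, MT-ND6 and MT-ND3 are messages in which Control 2 stood far below Control 1 and 3, and leaving out Control 2 alone raised the count from 0 to 1.

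For the combination, DAC+OSI was set against Control. No mitochondrial message was called by edgeR, against 28.1% of all genes in either direction, with 3 at an unadjusted p under 0.05, 2 called lower by DESeq2 and 1 by limma-voom. The median log2 fold change was -0.26 over the mitochondrial and 0.11 over the nuclear members. MT-ND4, with 8326, 13287 and 11240 CPM in DAC+OSI, came nearest (log2 -0.49, SE 0.18, adjusted p = 0.0525). It stood below every Control library. MT-CO1, with 32685, 43954 and 41586 CPM, did so too (log2 -0.41, SE 0.16, adjusted p = 0.0679), as did MT-ND5 with 3840, 4465 and 4882 CPM (log2 -0.27, SE 0.15, adjusted p = 0.211). MT-ND3 had the lowest fold change, with 1058, 441 and 929 CPM (log2 -0.94, SE 0.35, adjusted p = 0.0646), but its groups overlapped. With the replicate number as a block, MT-ND3 was called lower (log2 -0.93, adjusted p = 0.0197), which made the count 1.

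In DAC+OSI 2 the mitochondrial messages were split. MT-CO2 stood at 8632, 22998 and 11071 CPM in DAC+OSI, MT-CO3 at 10346, 20782 and 11324 CPM and MT-ATP6 at 2516, 5156 and 3147 CPM, each far higher in library 2 than in libraries 1 and 3. MT-CYB, at 3216, 4560 and 3696 CPM, and MT-ND4L, at 2007, 3017 and 2365 CPM, were also highest there. MT-ND3 and MT-ND2, the latter at 3711, 3200 and 4832 CPM, were lowest there, and MT-ND1 (6818, 7378 and 8261 CPM), MT-ND6 (309, 348 and 314 CPM) and MT-ATP8 (233, 191 and 197 CPM) differed little. Without DAC+OSI 2 the count called went from 0 to 7, without Control 2 or OSI 3 to 2, and without DAC+OSI 1 to 1. From 10 libraries it was 9 lower, against 20.2% of all genes. MT-CO2 went from a log2 fold change of 0.05 (adjusted p = 0.917) to -0.46 (adjusted p = 0.00582) between the fits on 12 and 10 libraries.

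DAC+OSI against OSI asks what dauricine adds to osimertinib. MT-CO1 was lower (log2 -0.59, SE 0.16, adjusted p = 0.0216), the 1 call among the 13, with 7.96% of all genes called lower and 9.01% higher. It did not overlap, and 3 of 22 alternatives ended the call: a fit of the groups compared only, leaving out OSI 3 and leaving out DAC+OSI 1, with adjusted p up to 0.131. The count of 1 became 0 without OSI 3, 4 without Control 2 and 7 without DAC+OSI 2. From 10 libraries 9 messages were lower and 1, MT-ATP8, was higher, against 19.8% of all genes called lower. DAC+OSI against DAC asks what osimertinib adds to dauricine. No mitochondrial message was called by edgeR, against 10.6% of all genes in either direction and 6.1% called higher, with 2 at an unadjusted p under 0.05. Limma-voom called none of the 13 either, and DESeq2 called 1, MT-CYB, higher. Without DAC+OSI 1, 2 were called. MT-CYB stood higher in every DAC+OSI library than in every DAC library (log2 0.46, SE 0.14, adjusted p = 0.0601, and log2 0.32 with adjusted p = 0.0218 from 10 libraries).

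The interaction tests whether the effect of dauricine differs with and without osimertinib. None of the 13 mitochondrial messages was called by edgeR, DESeq2 or limma-voom, and none had an unadjusted p under 0.05. None of the 43 nuclear members was called by these tools either, with 4 at an unadjusted p under 0.05. With edgeR, 2.92% of all genes were called in either direction and 1.01% with a positive interaction. The smallest adjusted p among the mitochondrial messages was 0.484, and their median interaction was 0.27 on the log2 scale against 0.02 over all genes. From 10 libraries 2 mitochondrial messages, MT-ATP8 and MT-ND6, had a positive interaction, against 9.85% of all genes, and 1 nuclear member a positive and 8 a negative one, against 10.4% of all genes for the latter.

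**Figure D5:**
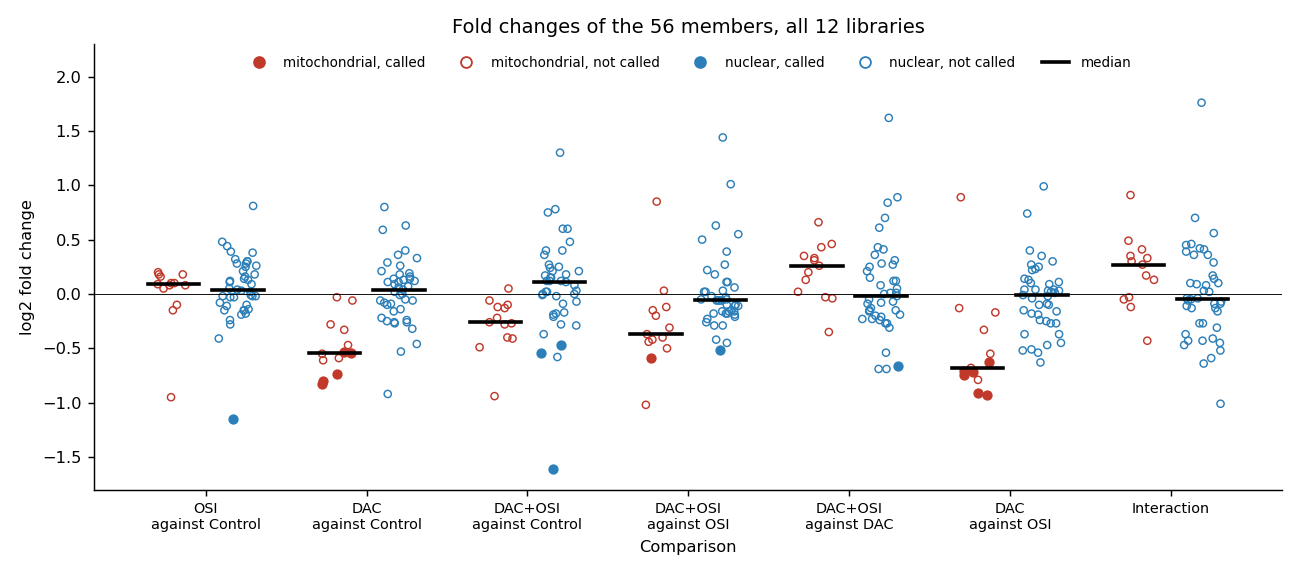
Log2 fold changes of the 56 members in the 6 pairwise comparisons and the interaction, mitochondrial in red and nuclear in blue, with filled points for members called at an adjusted p under 0.05 and bars for medians. In DAC against Control the mitochondrial median lies at -0.54 and the nuclear one at 0.04, and the lowest filled nuclear point, at -1.61 in DAC+OSI against Control, is NDUFV2.

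Among the nuclear members, 3 were called in at least 1 comparison and all of them lower: NDUFV2, ATP5PO and ATP5MC1. Their promoters are shown because these are the only nuclear members called from all 12 libraries. They were taken from RefSeq on GRCh38.p14, 250 bases before to 50 bases after the annotated start, 5′ to 3′ on the strand of the gene. They are NDUFV2 at chr18:9102449-9102748 (plus strand), ATP5PO at chr21:33915755-33916054 (minus strand) and ATP5MC1 at chr17:48892537-48892836 (plus strand). Capitals mark the motif of NRF1 (GCGCA and GCGC with any 1 base between them, on either strand), a transcription factor known for binding promoters of respiratory genes.
NDUFV2: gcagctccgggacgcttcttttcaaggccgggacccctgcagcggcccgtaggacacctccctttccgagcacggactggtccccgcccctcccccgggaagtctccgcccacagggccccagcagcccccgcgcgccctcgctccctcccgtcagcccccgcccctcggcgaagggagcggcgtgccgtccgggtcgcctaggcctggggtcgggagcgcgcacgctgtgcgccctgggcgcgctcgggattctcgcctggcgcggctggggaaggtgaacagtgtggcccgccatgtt
ATP5PO: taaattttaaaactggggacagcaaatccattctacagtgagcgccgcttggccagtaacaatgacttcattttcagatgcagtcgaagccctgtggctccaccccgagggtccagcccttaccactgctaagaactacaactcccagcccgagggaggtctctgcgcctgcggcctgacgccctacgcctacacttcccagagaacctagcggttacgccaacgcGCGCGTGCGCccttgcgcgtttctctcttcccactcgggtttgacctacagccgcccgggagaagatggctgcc
ATP5MC1: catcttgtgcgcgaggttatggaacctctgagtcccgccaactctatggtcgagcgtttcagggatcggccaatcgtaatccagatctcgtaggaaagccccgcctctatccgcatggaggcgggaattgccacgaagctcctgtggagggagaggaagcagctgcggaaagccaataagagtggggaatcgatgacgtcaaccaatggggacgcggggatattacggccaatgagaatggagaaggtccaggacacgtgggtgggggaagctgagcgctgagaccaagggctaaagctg
Of the 43 nuclear members, 33 had a promoter in the table. The NRF1 motif was in 8 of these (24.2%), ATP5PO, SDHA, SDHD and UQCRC1 among them, and in 6.28% of all 27305 promoters of this length. The ETS motif CCGGAAGT, of the kind bound by GABP, was in 5 member promoters (15.2%) and 4.44% of all. The YY1 motif AAGATGGCG was in 4 (12.1%) and 1.85% of all. The motifs were searched on both strands and do not contain each other. These matches describe the letters in the window and say nothing of binding in these cells.

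NDUFV2, an iron-sulfur subunit of the NADH dehydrogenase tip of complex I, was called lower with OSI alone and with the combination. It stood at 2.97, 2.7 and 3.99 CPM in Control, 1.71, 1.26 and 1.37 CPM in OSI, 1.58, 1.74 and 1.77 CPM in DAC and 1.4, 0.535 and 1.08 CPM in DAC+OSI. Every treated library lay below every Control library. The log2 fold change was -1.15 with OSI (SE 0.27, 2.22-fold, adjusted p = 0.0105), -1.61 with DAC+OSI (SE 0.28, 3.05-fold, adjusted p = 0.000965) and -0.92 with DAC (SE 0.27, adjusted p = 0.0505). Both calls held in all 22 alternatives, with adjusted p-values up to 0.0461 and 0.02. In the OSI comparison it was the 1 nuclear member called, against 8.23% of all genes called lower and 10.6% higher, and without DAC+OSI 2 that count was 8. NDUFV2 is low for a core subunit, at 1.19 CPM per kb in Control (3.42 by the longest transcript), and shares 28.4% of its exon bases with another annotated gene on its own strand, AP005263.1, so its level here is uncertain. In the same NADH dehydrogenase tip, NDUFV1, which carries the flavin, stood at 150 ± 24 CPM in Control, 182 ± 13.3 in OSI, 125 ± 8.82 in DAC and 161 ± 61.2 in DAC+OSI (SD, n = 3). It was called in no comparison from all libraries.

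The other nuclear members of complex I were not called from all libraries. NDUFS1, the largest iron-sulfur subunit, came nearest among them. It stood at 50, 45.1 and 49.1 CPM in Control and 43.1, 29.5 and 39.1 CPM in DAC+OSI (log2 -0.37, SE 0.14, adjusted p = 0.0623, 0.00956 from 10 libraries, and 0.0478 with the replicate number as a block). NDUFA10, an accessory subunit, stood at 113, 117 and 115 CPM in OSI and 83.6, 83.6 and 81.4 CPM in DAC (log2 -0.47, SE 0.18, adjusted p = 0.0876, and 8.11e-07 from 10 libraries). It was at 87, 112 and 90.4 CPM in Control and 89.7, 153 and 91.8 CPM in DAC+OSI. Control 2 and DAC+OSI 2 were the highest libraries of their groups. NDUFB10, another accessory subunit, showed the same pattern, at 92.3, 147 and 99.6 CPM in Control and 113, 352 and 118 CPM in DAC+OSI.

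Complex II, made of the flavoprotein SDHA, the iron-sulfur protein SDHB and the membrane anchors SDHC and SDHD, had no call in any comparison from all libraries. SDHB stood at 50.5, 61.6 and 47.2 CPM in Control and 43.4, 42.4 and 44.2 CPM in DAC+OSI (log2 -0.29, SE 0.13, adjusted p = 0.106). SDHA stood at 7.39, 9.02 and 9.3 CPM in Control, 12.2, 12.6 and 11.1 in OSI, 7.36, 7.88 and 7.98 in DAC and 8.87, 27.6 and 7.42 in DAC+OSI. DAC+OSI 2 was again apart, and without the pair SDHA was higher with OSI (log2 0.53, adjusted p = 0.00186) and lower with DAC than with OSI (log2 -0.64, adjusted p = 8.56e-05). SDHD stood higher in every DAC library than in every OSI library, at 7.09, 5.14 and 5.75 CPM in OSI and 8.93, 9.99 and 11.1 CPM in DAC (log2 0.74, SE 0.37, adjusted p = 0.179, and 0.000133 from 10 libraries).

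Of the 6 nuclear members of complex III, none was called from all libraries. UQCRFS1, the Rieske iron-sulfur protein, stood at 39.5, 39.6 and 40.7 CPM in Control, 54.7, 45.9 and 46.8 in OSI, 54.3, 49.9 and 54.3 in DAC and 53.9, 42.8 and 48 in DAC+OSI. Every treated library lay above every Control library, and the largest log2 fold change was 0.40 with DAC (SE 0.12, adjusted p = 0.0538, and 0.0018 from 10 libraries). MT-CYB, which sits beside it in the complex, lay below every Control library in DAC. UQCRQ, a small subunit next to cytochrome b, stood at 19.8, 19.1 and 18 CPM in Control and 26.9, 25.3 and 25.2 CPM in OSI (log2 0.44, SE 0.18, adjusted p = 0.104, and 0.00112 from 10 libraries). CYC1, the cytochrome c1 subunit, stood at 118, 202 and 129 CPM in Control, 152, 146 and 149 in OSI, 97.7, 109 and 105 in DAC and 103, 297 and 108 in DAC+OSI. Its fold change with DAC+OSI against Control turned from log2 0.17 to -0.23 (adjusted p = 0.745 and 0.0196) when the pair was left out.

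The 8 nuclear members of complex IV had no call from all libraries. NDUFA4, once counted with complex I, stood at 41.2, 39 and 42.6 CPM in DAC and 37.1, 18.1 and 28.8 CPM in DAC+OSI (log2 -0.54, SE 0.21, adjusted p = 0.117). COX4I1, the largest nuclear subunit, stood at 209, 195 and 185 CPM in OSI and 156, 165 and 177 CPM in DAC (log2 -0.24, SE 0.12, adjusted p = 0.174). COX7C stood at 69.5, 52.2 and 64.3 CPM in Control and 83.4, 78 and 81.2 CPM in OSI (log2 0.38, SE 0.19, adjusted p = 0.196). None of these pairs of groups overlapped, but neither did they for 17.7, 26.9 and 21.5% of all genes in the same comparisons and directions. From 10 libraries the adjusted p-values were 0.0334, 0.00268 and 0.0126. In that fit 11.2, 23.8 and 21.5% of all genes were called in the same directions.

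In complex V, ATP5MC1 and ATP5PO were called. ATP5MC1, ATP5MC2 and ATP5MC3 are separate genes for the same mature c subunit, which forms the rotor ring. ATP5MC1 stood at 26.6, 27.7 and 23.1 CPM in Control, 26.1, 28.4 and 21.9 in OSI, 27.5, 27.1 and 29.7 in DAC and 21.7, 13.5 and 17.8 in DAC+OSI. It was lower with the combination than in each other group, by log2 fold changes of -0.54 against Control (SE 0.17, adjusted p = 0.0285), -0.52 against OSI (SE 0.17, adjusted p = 0.0496) and -0.66 against DAC (SE 0.17, adjusted p = 0.024). No DAC+OSI library overlapped any of these groups. Against OSI and against DAC it was the 1 nuclear member called, with 7.96 and 4.52% of all genes called lower. These 3 calls were lost in 4, 9 and 5 of 22 alternatives, with adjusted p up to 0.105, 0.165 and 0.1. All 3 were lost without DAC+OSI 3 and in the fit of the compared groups alone, the first also without Control 1 or 2, the second without Control 1, Control 3, OSI 1, OSI 2 or any DAC library, and the third without any DAC library. They held from 10 libraries, with adjusted p-values of 0.0286, 0.00959 and 0.00198. The interaction for ATP5MC1 was -0.64 (SE 0.24, adjusted p = 0.199, and 0.0173 from 10 libraries), and the gene has 7 annotated pseudogenes that could share its reads.

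ATP5MC3 stood at 139 ± 30.8 CPM in Control, 144 ± 23.3 in OSI, 141 ± 10.9 in DAC and 139 ± 21.7 in DAC+OSI (SD, n = 3) and was not called. The count of ATP5MC1 was 0.213, 0.159 and 0.196 of that of ATP5MC3 in Control and 0.156, 0.084 and 0.151 in DAC+OSI, which do not overlap. ATP5MC2, which is not one of the 56 genes, fell with DAC from 173 ± 30.6 to 120 ± 9.13 CPM (log2 -0.53, SE 0.14, adjusted p = 0.0363).

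ATP5PO, the subunit that joins the peripheral stalk to the catalytic head, stood at 7.06, 7.15 and 6.91 CPM in Control, 7.18, 5.49 and 5.21 in OSI, 5.54, 5.88 and 6.25 in DAC and 5.54, 4.82 and 4.89 in DAC+OSI. It fell 1.38-fold with the combination (log2 -0.47, SE 0.15, adjusted p = 0.0355), without overlap, and 6 of 22 alternatives ended the call, with adjusted p up to 0.117. They were no filter on low counts, the fit of the compared groups alone and the fits without Control 1, Control 2, Control 3 or DAC+OSI 3. It shares 25.4% of its exon bases with AP000311.1 on the same strand. ATP5PB, another stalk subunit, stood at 109, 101 and 83.2 CPM in OSI and 110, 121 and 122 CPM in DAC (log2 0.27, SE 0.12, adjusted p = 0.145, and 0.0133 from 10 libraries).

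Calls of nuclear members thus numbered 1 with OSI, 0 with DAC and 3 with DAC+OSI against Control, where 12.8% of all genes were called lower and 15.4% higher with the combination. The counts of 1, 0 and 3 became 8, 6 and 10 without DAC+OSI 2. Without DAC+OSI 1 those for DAC and the combination became 1 and 6, and without Control 1 or 2 that for the combination became 1. No share of all genes stands beside the counts with 1 library left out, so they are not read as results about the members. From 10 libraries the nuclear calls were 15 higher and 5 lower with OSI, 2 and 3 with DAC, and 5 and 7 with DAC+OSI, against 42.3, 25.8 and 40.9% of all genes in either direction. Exon overlap bears on how far nuclear levels can be read. The 16 nuclear members that share at least 10% of their exon bases with another gene had a median of 6.21 CPM per kb in Control, and the other 27 a median of 21.8. Levels varied widely among the 16. NDUFS7 (49.1% shared) and NDUFB8 (48.5%) stood at 0.913 and 0.585 CPM per kb, whereas NDUFA1 (44.5%) and COX8A (34.5%) stood at 75.8 and 33.9 CPM per kb. Without known strand and counting rules, reads there cannot be assigned with certainty.

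The 38 further nuclear subunits and carriers of the chain were all tested. Against Control they gave 4 lower calls with OSI, 1 with DAC and 7 with DAC+OSI, and none higher. Of all genes, 8.23, 4.11 and 12.8% were called lower and 10.6, 5.33 and 15.4% higher. From 10 libraries the counts were 11 higher and 6 lower with OSI, 2 and 3 with DAC, and 2 and 11 with DAC+OSI, where 20.8, 12.8 and 20.2% of all genes were called lower and 21.5, 13.1 and 20.8% higher. CYCS, the soluble cytochrome c that links complexes III and IV, fell with OSI from 97.4 ± 10.8 to 51.2 ± 5.44 CPM (log2 -0.93, SE 0.25, adjusted p = 0.0209). COX7A2L, which helps complexes III and IV associate, fell with OSI from 196 ± 23.3 to 119 ± 18.1 CPM (adjusted p = 0.017). Medians of the list were 0.04, -0.11 and -0.16 on the log2 scale, against -0.01, 0.01 and 0.03 over all genes. Of 8 isoforms known from particular tissues, 4 were tested. NDUFA4L2 stood higher in DAC+OSI, at 5.93 ± 0.691 CPM, than in DAC, at 2.97 ± 0.539 CPM (log2 0.99, SE 0.17, adjusted p = 0.00306).

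Of 45 assembly factors tested, 6 rose and 4 fell with OSI, 2 and 1 with DAC, and 6 and 5 with DAC+OSI against Control, where 18.9, 9.43 and 28.1% of all genes were called in either direction. From 10 libraries the counts were 9 and 10, 7 and 6, and 8 and 9, where 42.3, 25.8 and 40.9% of all genes were called. UQCC3, which helps assemble cytochrome b into complex III, rose from 4.46 ± 0.2 CPM in Control to 10.8 ± 0.266 with DAC (log2 1.27, SE 0.15, adjusted p = 0.000295) and 24.8 ± 3.04 with DAC+OSI (log2 2.48, SE 0.16, adjusted p = 3.38e-07). With OSI alone it stood at 4.41 ± 0.833 CPM. MT-CYB fell with DAC and was not called from all libraries with DAC+OSI (log2 -0.28, adjusted p = 0.172, and 0.00518 from 10 libraries). Set directly against DAC, it was not called in DAC+OSI by edgeR from all libraries (adjusted p = 0.0601). A link between UQCC3 and MT-CYB was not tested. NDUFAF2, a complex I assembly factor, fell from 34.9 ± 3.23 CPM to 16.6 ± 0.839 with OSI, 24.2 ± 2.97 with DAC and 13.5 ± 0.635 with DAC+OSI (adjusted p = 9.12e-05, 0.0211 and 7.23e-06).

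Genes that copy, transcribe or process mitochondrial DNA and RNA, 30 in number, had no higher call against Control from all 12 libraries. They had 2 lower calls with OSI, 2 with DAC and 7 with DAC+OSI. Of all genes, 8.23, 4.11 and 12.8% were called lower and 10.6, 5.33 and 15.4% higher. From 10 libraries 1 was higher and 14 lower with OSI, 2 and 7 with DAC, and 4 and 15 with DAC+OSI. In that fit 20.8, 12.8 and 20.2% of all genes were called lower and 21.5, 13.1 and 20.8% higher. TWNK, the mitochondrial DNA helicase, fell from 47.1 ± 8.11 CPM to 33.6 ± 2.51 with OSI, 29 ± 1.66 with DAC and 23 ± 0.71 with DAC+OSI (adjusted p = 0.0222, 0.00616 and 0.000103). POLG2, the accessory subunit of the mitochondrial DNA polymerase, fell from 24.6 ± 5.14 CPM to 13.8 ± 2.35 with DAC and 11 ± 1.28 with DAC+OSI (adjusted p = 0.00925 and 0.000299). Of 77 mitochondrial ribosomal protein genes, 3 fell with OSI, 1 rose and 2 fell with DAC, and 1 rose and 24 fell with DAC+OSI. From all 12 libraries, 8.23, 4.11 and 12.8% of all genes were called lower and 10.6, 5.33 and 15.4% higher. From 10 libraries 7 were higher and 26 lower with OSI, 2 and 25 with DAC, and 6 and 37 with DAC+OSI. In that fit 20.8, 12.8 and 20.2% of all genes were called lower and 21.5, 13.1 and 20.8% higher. MRPL49 was the gene that rose from all 12 libraries, going from 72.7 ± 0.396 CPM to 118 ± 5.35 with DAC and 159 ± 10.7 with DAC+OSI (adjusted p = 0.00107 and 5.22e-06). MRPL37 fell with DAC from 178 ± 14.6 to 126 ± 2.26 CPM (adjusted p = 0.0192).

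Of 9 regulators of mitochondrial biogenesis, 8 were tested, and PPARGC1A, which encodes the coactivator PGC-1alpha, had 14 counts in all libraries together. Its relative PPARGC1B stood at 6.48 ± 1.45 CPM in Control, 9.59 ± 1.11 in OSI, 7.81 ± 0.231 in DAC and 14.3 ± 0.252 in DAC+OSI, and rose with OSI and with DAC+OSI (adjusted p = 0.0259 and 0.00019). MYC, which among much else drives nuclear genes for mitochondria, fell from 189 ± 32.2 CPM to 97.2 ± 10.3 with OSI and 93.4 ± 7.33 with DAC+OSI (adjusted p = 0.0005 and 0.000189). With DAC it stood at 157 ± 14.2 CPM. No regulator was called with DAC against Control by edgeR, against 9.43% of all genes in either direction. There was 1 at an unadjusted p under 0.05, and DESeq2 and limma-voom each called 1 lower. From 10 libraries 1 was called higher and 2 lower, against 25.8% of all genes.

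Nuclear copies of mitochondrial genes were checked because reads can move between near-identical sequences. MTATP6P1, a nuclear copy of MT-ATP6, was far above the rest, at 1765, 1412 and 1729 CPM in Control, 1777, 1465 and 2178 in OSI, 1105, 1063 and 794 in DAC and 872, 771 and 1206 in DAC+OSI. It fell with DAC (log2 -0.73, SE 0.20, adjusted p = 0.0372) and with DAC+OSI (log2 -0.78, SE 0.20, adjusted p = 0.0103). How its reads and those of MT-ATP6 were told apart is not given, so both values are uncertain. The other copies stayed at or below 145 CPM, the level of MTND2P28 in DAC 2, which is within the range of MT-ATP8 and below every library of the other 12 mitochondrial messages.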

How the data were processed

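Whole-number read counts for 39266 Ensembl genes were deposited, and the authors' steps include CASAVA, HISAT2 and featureCounts, per the submitters' processing notes. Versions, settings, strand and genome build were not given in the sources used here. Per the labels' protocols, RNA was enriched with oligo(dT), fragmented and primed with random hexamers. Gene symbols were found for 39178 identifiers, and exon lengths and GC content came from GENCODE 29 (37919 identifiers). Libraries held 24909151 to 66866253 counts. A count of 0 allows up to 3 counts, or 0.0449 to 0.12 CPM, which covers counting error only.

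All 12 libraries were fitted with edgeR 4.0.16 in R 4.3.3 (filterByExpr, TMM, 1 mean per group, quasi-likelihood test, two-sided, adjusted over 20820 genes within each of 7 comparisons). The biological coefficient of variation was 20.9%. Standard errors (SE) are of log2 fold changes. Calls required an adjusted p under 0.05, and CPM were scaled by TMM factors. The fit was tested on simulated data. Deviations of Control and DAC+OSI libraries with the same replicate number, from the titles, correlated at 0.29, 0.43 and 0.2, which does not establish pairs. The main fit used no pairs, and the replicate number entered only as an alternative. Alternatives were RLE, upper quartile and scaling without mitochondrial genes, no filter, DESeq2 1.42.0, limma-voom (limma 3.58.1), the compared groups alone, each library left out, the replicate number as a block, 10 libraries, and GC correction.

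The members, the lists and the alternatives were chosen with earlier results of these data known. Values in every library are given for the mitochondrial members and for up to 3 nuclear members per complex with the smallest adjusted p over the pairwise comparisons. From each other list, up to 2 called genes with the smallest adjusted p per comparison could be named. NDUFB10, NDUFV1, NDUFS7, NDUFB8, NDUFA1, COX8A and the other members named beside these were chosen after their values were seen.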

Additional observations from a re-analysis of the deposited data

How the results depend on the processing

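The median difference between mitochondrial and nuclear members kept its direction in every alternative for DAC against Control, DAC against OSI, DAC+OSI against Control, against OSI and against DAC, and in the interaction. For OSI against Control it was 0.05 and ranged over both signs, from -0.12 to 0.17 with single libraries left out and from -0.09 to 0.07 otherwise. With single libraries left out it ran from -0.68 to -0.41 (DAC against Control), -0.76 to -0.45 (DAC against OSI), -0.44 to -0.23, -0.49 to -0.08 and 0.14 to 0.41 (DAC+OSI against Control, OSI and DAC) and 0.10 to 0.45 (interaction).

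Counts of called members moved more, and the cause was not tested. In the order OSI, DAC and DAC+OSI against Control, DAC+OSI against OSI and against DAC, DAC against OSI, and interaction, mitochondrial calls were 0, 5, 0, 1, 0, 6 and 0 from all libraries, 1, 9, 3, 5, 1, 10 and 1 with no filter, and 2, 12, 9, 10, 1, 11 and 2 from 10 libraries. Nuclear calls in this order were 1, 0, 3, 1, 1, 0 and 0 from all libraries, 2, 3, 5, 4, 7, 8 and 1 with no filter, 20, 5, 12, 13, 3, 17 and 9 from 10 libraries, and 5, 7, 8, 2, 12, 7 and 4 with GC correction. Calls over all genes moved too. In this order they were 18.9, 9.43, 28.1, 17, 10.6, 20.7 and 2.92% from all libraries. From 10 libraries they were 42.3, 25.8, 40.9, 40.7, 23.7, 48.1 and 20.2%. No such share is given for the other fits, whose counts are not read as results about the members. GC correction gave 1, 2 and 1 mitochondrial calls for DAC+OSI against Control, OSI and DAC. DESeq2 gave 2, 3 and 1 there, and 2 nuclear calls with OSI and 2 with DAC against Control. Limma-voom gave 1 and 2 mitochondrial calls for DAC+OSI against Control and OSI, and 2 nuclear calls with DAC. RLE, upper quartile and scaling without mitochondrial genes gave 1 nuclear call each with DAC. Fits of the compared groups alone, not run for the interaction, gave 8 and 11 mitochondrial calls for DAC against Control and OSI, and 4, 2, 1, 0, 0 and 17 nuclear calls in the first 6 comparisons.

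With single libraries left out, mitochondrial calls ran from 0 to 1, 1 to 8, 0 to 7, 0 to 7, 0 to 2, 2 to 9 and 0 to 0, and nuclear calls from 1 to 8, 0 to 6, 1 to 10, 0 to 9, 0 to 4, 0 to 11 and 0 to 0.

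With the replicate number as a block, nuclear calls were 2 and 3 with OSI and DAC against Control, 2 for DAC+OSI against DAC and 2 for DAC against OSI, and mitochondrial calls 1 and 2 for DAC+OSI against Control and OSI. Deviations of same-numbered libraries correlated at 0.2 to 0.43 between Control and DAC+OSI and at -0.06 to 0.08 between other groups. The correlations between Control and DAC+OSI are not independent of each other and do not establish pairs. The main fit used no pairs in any comparison.

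From 10 libraries, fold changes turned, on the log2 scale, to -0.46 for MT-CO2 and -0.23 for CYC1 (DAC+OSI against Control), 0.28 for CYC1 (OSI against Control), -0.38, -0.37, -0.57, -0.51 and -0.54 for NDUFB7, NDUFB10, SDHA, CYC1 and COX8A (DAC+OSI against OSI), -0.32 for ATP5F1D (DAC+OSI against DAC), and -0.44, -0.54, -0.31, -0.42 and -0.40 for NDUFB7, NDUFB10, NDUFS8, NDUFV1 and UQCRC1 (interaction). Without DAC+OSI 2 alone they were -0.51 and -0.54 for MT-CO2 and CYC1 against Control, and -0.58, -0.53 and -0.56 for SDHA, CYC1 and COX8A against OSI, and the highest values with another library left out were 0.30, 0.44, 0.60, 0.44 and 0.29.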
